A study of Mus musculus with 32 samples.

Results

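Among cystic kidneys of mice with an induced deletion of *Pkd1*, 8 with a high and 8 with a low level of tubular injury markers were compared across all other genes. The 16 kidneys were selected on measured values of their own libraries, from 24 *Pkd1*-deleted kidneys and 32 kidneys in all. The markers were *Havcr1* (kidney injury molecule 1, made by injured proximal tubule cells), *Lcn2* (NGAL, a siderophore-binding protein released by injured tubules), *Krt20* (a keratin of injured tubules) and *Timp1* (an inhibitor of matrix metalloproteinases). The injury score of a kidney was the mean over these 4 genes of log2(CPM + 1), where CPM is the count of a gene scaled to a common total of counts on genes. Within the 11 ranked PKD and the 12 PKD + Salsalate kidneys, the 4 highest scores formed the high group and the 4 lowest the low group. Each group thus held 4 kidneys with and 4 without the drug, and 7 kidneys fell between the groups within their own treatment.

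The kidneys came from C57BL/6 males of a line in which Cre recombinase is driven by the Ksp-cadherin (*Cdh16*) promoter, active in the tubular epithelium, and is switched on by tamoxifen. PKD and PKD + Salsalate mice received tamoxifen (150 mg/kg) on postnatal days 18 and 19, which deletes exons 2 to 11 of *Pkd1*, and were killed at 95 days. PKD + Salsalate mice were fed salsalate, a prodrug of salicylate, at 2.5 g per kg of chow for 2 weeks from day 81. The 8 wildtype mice had no tamoxifen, are labelled as 109 days old, and serve only as a background level here. The study picked both PKD groups for a similarly mild kidney enlargement, and mice outside that range are not analysed here.

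*Pkd1* encodes polycystin 1, a membrane protein of tubule cells whose loss turns tubules into cysts. Injured tubule cells lose transporters and metabolic enzymes, and turn on genes of adhesion, secretion and repair. They secrete chemokines and growth factors, macrophages gather around the tubules, and fibroblasts lay down collagen. Several plasma proteins that the liver makes, among them fibrinogen and complement C3, are also made by injured kidney epithelium.

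In the high group, many listed genes of injury and repair, chemokines and cytokines, macrophages, matrix and complement were expressed at higher levels. Of 52 listed proximal tubule genes, 7 were lower and 1 higher at an adjusted p under 0.05. *Slc7a13*, a transporter of the last segment of the proximal tubule, was among the 7. The largest rises at a mean of at least 5 CPM were *C3* and the fibrinogen chain *Fgg*, at a log2 difference (high minus low) of 1.01 and 1.00. In all, 627 of 13957 genes (4.49%) had an adjusted p under 0.05 in edgeR's quasi-likelihood test with treatment as a covariate. Of these, 455 were higher (3.26% of the genes tested) and 172 lower (1.23%) in the high group, and 2794 genes had an unadjusted p under 0.05. The share of calls that were higher was 72.6%, but 54.4% of 1600 calls when *Timp1* was left out of the score and 52.3% of 1412 calls with the score as a slope and a replicate block. The differences were modest, with 88 of the higher and 19 of the lower genes beyond 1.5-fold.

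The count depended on single kidneys, which are named here by group and replicate number, as in PKD 6. Leaving out PKD + Salsalate 12 gave 245 calls, PKD + Salsalate 11 gave 284, PKD + Salsalate 2 gave 376, PKD 6 gave 355 and PKD 8 gave 389. In the other fits with 1 kidney left out it stayed within 1.5 times of 627. All 627 genes kept their direction in each of these 16 fits, and 234 passed the threshold in every one of them.

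The 4 scoring genes are given as a description only, since they chose the groups. *Havcr1* was between 56.6 and 156 CPM (median 72.6) in the high group, between 15.7 and 51.8 CPM (median 29.0) in the low group and at most 1.65 CPM in wildtype kidneys. *Lcn2* was between 42.3 and 81.5 CPM (median 54.6) in the high group, between 18.0 and 41.6 CPM (median 28.1) in the low group and at most 2.31 CPM in wildtype kidneys. *Krt20* ran from 5.21 to 20.0 CPM against 1.498 to 5.64 CPM, and *Timp1* from 12.1 to 20.2 CPM against 3.26 to 8.58 CPM. Only the *Krt20* ranges overlapped.

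The injury score was between 4.48 and 5.41 in the high group, between 3.05 and 4.19 in the low group and between 0.635 and 0.990 in wildtype kidneys. Even the kidneys of the low group thus carried the markers far above wildtype, and the comparison is between more and less injury, not between injury and its absence. The score did not fall into separate clusters. In PKD kidneys the lowest high score was 4.63 and the next kidney had 4.59, and in PKD + Salsalate kidneys the highest low score was 3.72 and the next kidney had 3.73. On the other side, the lowest high score with the drug was 4.48 against 4.27, and the highest low score without it was 4.19 against 4.51. High and low are thus ranks within a treatment group, and the middle PKD kidneys, at 4.51 to 4.59, scored above the lowest high kidney with the drug.

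**Figure D1:**
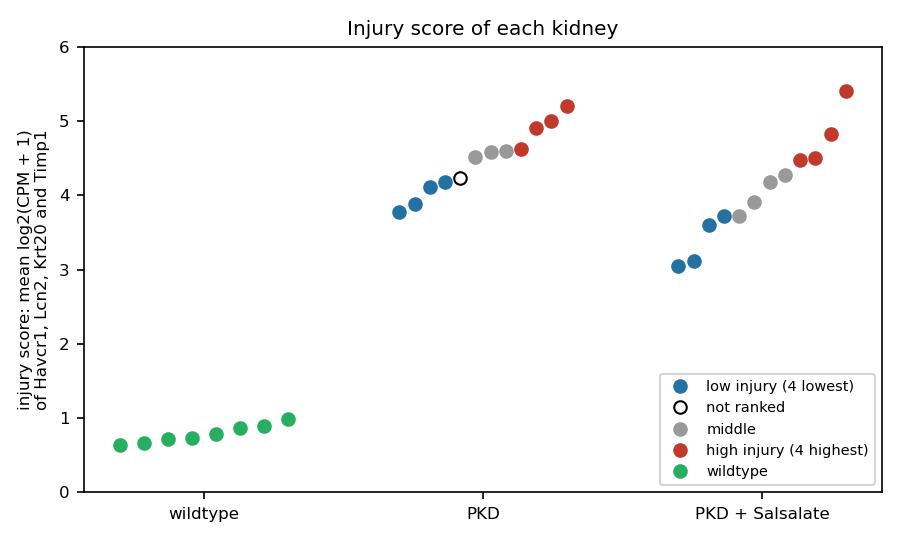
Injury score of each of the 32 kidneys, as the mean log2(CPM + 1) of *Havcr1*, *Lcn2*, *Krt20* and *Timp1*, by group; each point is 1 kidney and the horizontal spread within a group only orders the points. The 8 high kidneys lie between 4.48 and 5.41 and the 8 low kidneys between 3.05 and 4.19, while wildtype kidneys stay below 1.

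Total counts on genes were between 14950783 and 28938829 in the high group and between 11193136 and 109807664 in the low group, where PKD + Salsalate 3 was the deepest library. None of 7 library measures differed between the groups at an adjusted p under 0.05 (exact permutation test, 2-sided, labels exchanged within treatment groups). The nearest was the share of ambiguous alignments, with a median of 1.63% against 1.58% (exact p = 0.0118, adjusted p = 0.0829). PKD 10 was not ranked, because its *Alb* level of 1929.9 CPM stood against 0.936 to 11.4 CPM in the 31 other kidneys. With the deepest library and PKD 4, which had the largest share of alignments on no feature (16.4%), left out together, 796 genes were called.

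**Figure D2:**
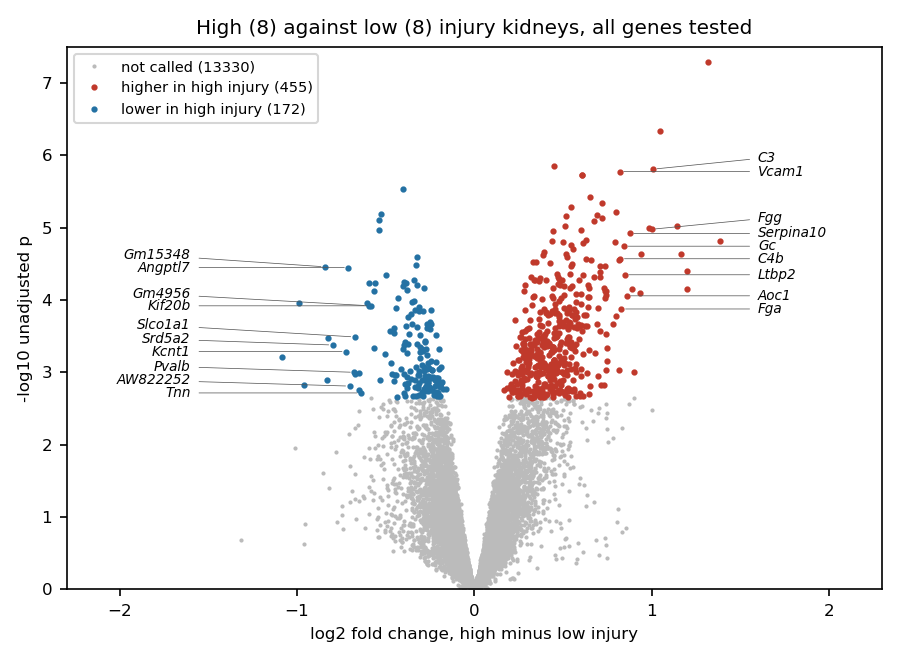
Log2 difference between the 8 high and the 8 low injury kidneys (horizontal axis) and -log10 of the unadjusted p (vertical axis) for the 13957 genes tested. Red points are the 455 genes called higher and blue points the 172 called lower, and most of the 10 largest rises and falls at a mean of at least 5 CPM are named.

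The acute-phase and secreted genes are described first, because they led the list. Fibrinogen is a clotting protein built of 3 chains, whose genes *Fgg*, *Fga* and *Fgb* lie next to each other on chromosome 3 (GRCm39, chr3:82915030-82922363, chr3:82933383-82940934 and chr3:82947448-82957170). The 250 bases before the start of each gene are shown because the 3 neighbours rose together. They come from RefSeq on GRCm38.p6, 5′ to 3′ on the strand of the gene, with chr3:83007474-83007723 on the plus strand for *Fgg*, chr3:83025903-83026152 on the plus strand for *Fga* and chr3:83049864-83050113 on the minus strand for *Fgb*. Capitals mark matches to TTCNNNGAA, the core of sites bound by STAT factors, which act downstream of interleukin-6, or to CTGGGAA, the interleukin-6 response element described in fibrinogen genes, on either strand.
Fgg: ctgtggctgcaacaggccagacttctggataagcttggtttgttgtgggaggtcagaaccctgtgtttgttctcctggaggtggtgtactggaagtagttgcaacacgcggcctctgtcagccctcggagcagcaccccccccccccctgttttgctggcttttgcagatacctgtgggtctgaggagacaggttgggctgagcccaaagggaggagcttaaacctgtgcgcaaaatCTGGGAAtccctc
Fga: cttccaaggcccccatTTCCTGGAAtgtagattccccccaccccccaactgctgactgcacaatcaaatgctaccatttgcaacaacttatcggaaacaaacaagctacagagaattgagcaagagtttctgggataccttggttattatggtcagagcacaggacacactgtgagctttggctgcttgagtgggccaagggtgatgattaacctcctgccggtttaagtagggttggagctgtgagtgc
Fgb: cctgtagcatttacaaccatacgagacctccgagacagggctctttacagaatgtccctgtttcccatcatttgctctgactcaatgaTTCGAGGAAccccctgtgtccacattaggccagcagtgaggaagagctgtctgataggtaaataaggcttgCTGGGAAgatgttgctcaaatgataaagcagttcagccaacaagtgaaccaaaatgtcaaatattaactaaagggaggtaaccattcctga

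TTCNNNGAA was found 234 to 226 bases before the start of *Fga* and 162 to 154 bases before that of *Fgb*, and not in the *Fgg* window. CTGGGAA was found 13 to 7 bases before the start of *Fgg* and 91 to 85 bases before that of *Fgb*, and not in the *Fga* window. The matches do not overlap each other. Of 32851 mouse windows of this length, 7.02% hold TTCNNNGAA and 9.10% hold CTGGGAA, so that the matches are a description of these letters and not evidence of binding. The windows and motifs were chosen after the values were seen.

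*Fgb* was between 2.63 and 5.90 CPM (median 3.57) in the high group and between 1.15 and 1.99 CPM (median 1.49) in the low group. All 8 high kidneys lay above all 8 low kidneys. The log2 difference was 1.32 ± 0.15 (± SE, adjusted p = 0.0007), at 1.20 ± 0.22 without and 1.41 ± 0.21 with salsalate. *Fgg* was between 17.5 and 46.9 CPM (median 22.7) in the high and between 8.75 and 16.4 CPM (median 12.7) in the low group, again without overlap (log2 difference 1.00 ± 0.17, adjusted p = 0.0062). *Fga* was between 17.2 and 44.6 CPM (median 24.1) against between 10.1 and 22.5 CPM (median 13.8), with 6 of 8 high kidneys above every low one (log2 difference 0.83 ± 0.17, adjusted p = 0.014). Wildtype kidneys had 0.172 to 3.03 CPM of *Fgb* and 3.05 to 7.66 CPM of *Fgg*.

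Because fibrinogen is also a liver protein, liver genes were read beside it. *Alb*, which encodes albumin, was 1.90 to 3.07 CPM in the high and 1.77 to 4.44 CPM in the low group (log2 difference -0.13 ± 0.17, adjusted p = 0.711). Of 26 liver genes listed, 14 passed the filter on low counts and their summed level was 229.9 to 305 CPM against 222 to 294 CPM. Of these, 3 were called, with *Trf* (transferrin) higher and *Serpina1c* and *C8a* lower in the high group. The shares were 7.14% higher and 14.3% lower, beside 3.26% and 1.23% of all genes, and the list had a median log2 difference of -0.13. *Ahsg*, *Mup3* and *Cyp2c29* were at 0 counts in 11 to 14 of the 16 kidneys.

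*C3*, the central component of complement (ENSMUSG00000024164, chr17:57510964-57535155 on GRCm39), was between 68.9 and 141 CPM (median 102) in the high group and between 30.4 and 78.1 CPM (median 51.3) in the low group. Of the high kidneys, 6 of 8 lay above every low one, and wildtype kidneys had 16.7 to 31.3 CPM. The log2 difference was 1.01 ± 0.15 (adjusted p = 0.0037), at 0.82 ± 0.15 without and 1.20 ± 0.20 with salsalate. *C4b*, whose protein acts before C3 in the classical pathway, rose by 0.82 ± 0.15 (adjusted p = 0.0085), and reads of its near-identical neighbour *C4a* cannot be fully told apart from it. Of 19 complement genes tested, 5 rose (26.3%, beside 3.26% of all genes) and 0 fell. The others were *C3ar1* and *C5ar1*, the receptors of the fragments C3a and C5a on myeloid cells, and *Cfi*, the protease that cleaves C3b, at 12.9 to 31.5 CPM against 9.77 to 19.3 CPM (log2 difference 0.73 ± 0.14).

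*Gc* (the vitamin D binding protein) and *Serpina10* (an inhibitor of clotting factor Xa), other plasma proteins, were among the 10 largest rises at 0.84 ± 0.15 and 0.88 ± 0.15. *Serpina10* was 14.0 to 28.8 CPM in the high, 7.19 to 15.5 CPM in the low and 0.259 to 1.08 CPM in the wildtype group. *Aoc1*, a diamine oxidase of the tubule, rose by 0.86 ± 0.17.

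Of 39 other genes of tubular injury and repair tested, 16 rose and 0 fell, and the median log2 difference of the list was 0.34 beside -0.01 for all genes tested. The background share of calls was 3.26% higher and 1.23% lower. *Spp1*, osteopontin, was one of the most abundant, between 1625 and 3237 CPM (median 2065) in the high and between 993 and 1757 CPM (median 1147) in the low group. Of the high kidneys, 7 of 8 lay above every low one (log2 difference 0.79 ± 0.14, adjusted p = 0.0071), and wildtype kidneys had 223 to 488 CPM. *Clu*, the secreted chaperone clusterin, was 368 to 536 CPM against 225 to 349.8 CPM without overlap (log2 difference 0.63 ± 0.11, adjusted p = 0.0071).

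*Vcam1*, an adhesion molecule that marks tubule cells that fail to repair, was between 22.5 and 45.4 CPM (median 35.1) in the high and between 14.7 and 25.7 CPM (median 19.1) in the low group. The groups overlapped in part, and the log2 difference was 0.82 ± 0.12 (adjusted p = 0.0037), at 0.75 ± 0.11 without and 0.89 ± 0.19 with salsalate. *Cd44*, the hyaluronan receptor of dedifferentiated epithelium, rose by 0.72 ± 0.11, *Vim* (vimentin) by 0.46 ± 0.10, *Tnfrsf12a* (the TWEAK receptor) by 0.59 ± 0.13 and *Cldn4* (a tight junction claudin) by 0.54 ± 0.12. With PKD 4 left out, 27 members of the list were called. Another 5 listed genes, such as *Slpi* and *Sprr2f*, did not reach the filter.

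**Figure D3:**
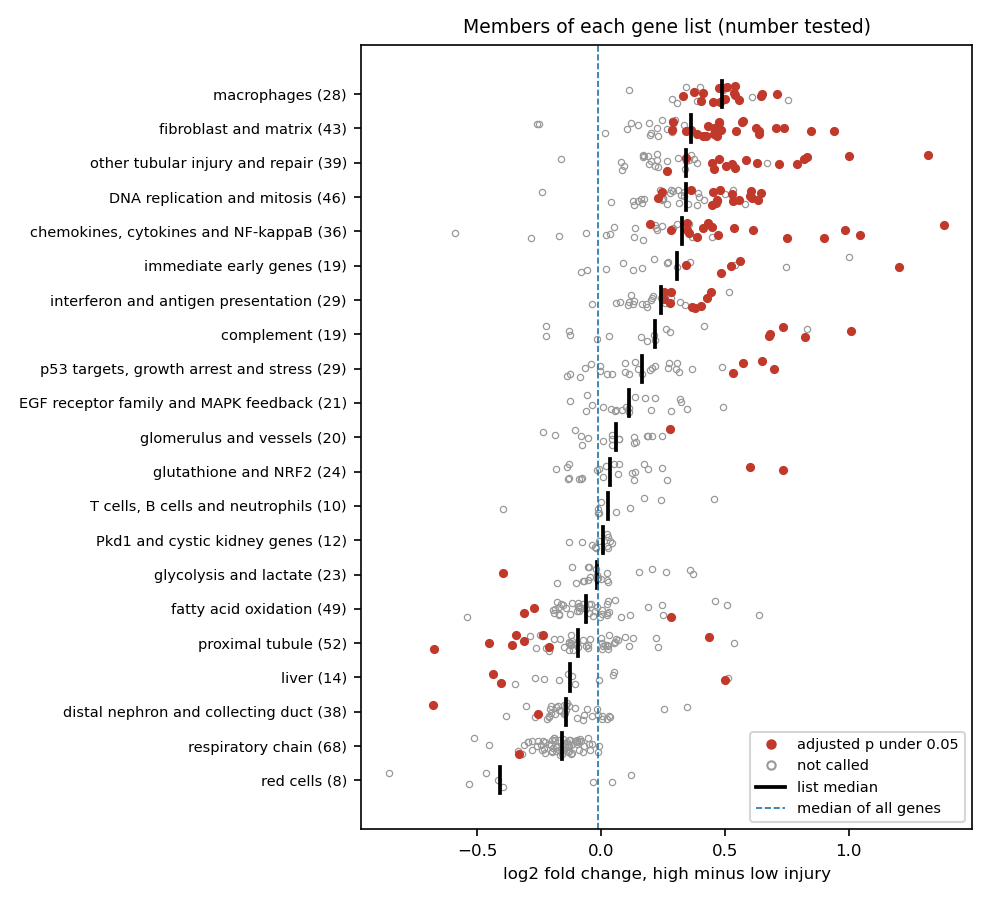
Log2 difference between high and low injury kidneys of every tested member of 21 gene lists, sorted by list median; red points have an adjusted p under 0.05, black bars are list medians and the dashed line is the median of all genes. Lists of macrophages, matrix and injury lie to the right with medians of 0.34 to 0.49, and the respiratory chain list lies wholly to the left of 0.

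In the matrix, 25 of 43 genes tested rose (58.1%, beside 3.26% of all genes) and 0 fell. The median log2 difference was 0.36 (0.29 without and 0.45 with salsalate). With PKD + Salsalate 12 left out, 12 of the 43 were called. *Col1a1*, a chain of the fibre-forming collagen I, was between 224 and 415 CPM (median 262) in the high and between 138 and 248 CPM (median 183) in the low group, against 36.9 to 57.3 CPM in wildtype kidneys. The log2 difference was 0.64 ± 0.13 (adjusted p = 0.011), and *Col3a1* moved alike, by 0.64 ± 0.13. The basement membrane collagen *Col4a1* was 514 to 765 CPM against 322 to 505 CPM without overlap (log2 difference 0.42 ± 0.10, adjusted p = 0.022), and its adjusted p was 0.055 with PKD + Salsalate 12 left out.

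*Tnc*, tenascin C of wounded matrix, was 28.3 to 42.1 CPM against 18.7 to 26.2 CPM, also without overlap (log2 difference 0.55 ± 0.09, adjusted p = 0.0062). *Ltbp2*, a microfibril protein related to the binding proteins of latent TGF-β, had one of the largest rises of this list, from between 5.57 and 15.1 CPM (median 9.72) to between 14.3 and 27.2 CPM (median 16.7). Its log2 difference was 0.46 ± 0.14 without and 1.23 ± 0.21 with salsalate, and the difference between these values did not pass the test over all genes (adjusted p = 0.825). The collagen crosslinking enzymes *Lox* and *Loxl2* rose by 0.71 ± 0.16 and 0.47 ± 0.09. *Tgfb1* itself rose by 0.29 ± 0.07 (adjusted p = 0.027).

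All 28 listed macrophage genes were tested, of which 18 rose (64.3%, beside 3.26% of all genes) and 0 fell. All 28 had a fitted value above 0, with a median log2 difference of 0.49 (0.29 without and 0.64 with salsalate). Under DESeq2's size factors and under upper-quartile factors the 28 values were also above 0. *Lyz2*, lysozyme, was between 109 and 175 CPM (median 121) in the high and between 64.0 and 128 CPM (median 77.3) in the low group, and 2 of 8 high kidneys lay above every low one, since PKD 7 of the low group had 128 CPM (log2 difference 0.64 ± 0.13, adjusted p = 0.01). *Ctss*, a lysosomal protease of antigen-presenting cells, rose by 0.65 ± 0.13, and *C1qa*, a subunit of complement C1q that tissue macrophages make, by 0.54 ± 0.10.

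*Fcgr1*, the high-affinity IgG receptor, was 4.55 to 7.81 CPM against 2.55 to 4.23 CPM without overlap (log2 difference 0.71 ± 0.14, adjusted p = 0.0099). *Cx3cr1*, the receptor of fractalkine, rose by 0.48 ± 0.10. The summed level of the macrophage list was 773 to 1138 CPM in the high, 562 to 855 CPM in the low and 271 to 485 CPM in the wildtype group. In whole kidneys, more cells of a type and more RNA per cell cannot be told apart. The list held 11 calls when PKD 8 was left out and 10 for PKD + Salsalate 12.

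Of 23 listed lymphocyte and neutrophil genes, 10 passed the filter and 0 were called, with 1 at an unadjusted p under 0.05, beside 4.49% called of all genes. Their median log2 difference was 0.03, and 5 of the 10 had a fitted value above 0, or 9 with upper-quartile factors. *Cd8a* was 1.90 to 3.46 CPM against 1.48 to 3.55 CPM (log2 difference -0.01 ± 0.18), and *Ly6g* was at 0 counts in 13 of the 16 kidneys.

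Among 36 chemokines, cytokines and NF-κB genes tested, 17 rose (47.2%, beside 3.26% of all genes) and 0 fell. The median log2 difference was 0.33. With PKD + Salsalate 12 left out, 9 were called. *Lif*, a cytokine of the interleukin-6 family, was between 3.43 and 7.88 CPM (median 5.45) in the high and between 1.45 and 4.00 CPM (median 2.66) in the low group, and at most 0.409 CPM in wildtype kidneys (log2 difference 1.05 ± 0.14, adjusted p = 0.0032). *Il6* was under the filter, at no more than 0.449 CPM in the high and 0.536 CPM in the low group. *Ccl2*, which draws monocytes, was 2.27 to 5.87 CPM against 1.66 to 2.98 CPM (log2 difference 0.98 ± 0.16, adjusted p = 0.0062).

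*Csf1*, the growth factor of macrophages, was 31.4 to 42.2 CPM against 25.2 to 31.6 CPM, with 7 of 8 high kidneys above every low one (log2 difference 0.39 ± 0.07, adjusted p = 0.0084). *Il1rn*, the interleukin-1 receptor antagonist, rose by 1.38 ± 0.24 from a low level (1.06 to 3.00 CPM in medians). *Il1rn* passed the filter on low counts only because high kidneys were counted, since too few others had a log2 CPM above 1. *Icam1*, an adhesion molecule, *Cxcl10*, a chemokine for T cells, and *Relb*, an NF-κB subunit, rose by 0.35 ± 0.06, 0.62 ± 0.11 and 0.41 ± 0.09. *Socs3*, the feedback inhibitor of interleukin-6 family signals, and *Clcf1*, a cytokine of that family, were named after their values were seen. They rose by 0.80 ± 0.13 and 0.55 ± 0.11 (adjusted p = 0.0062 and 0.01).

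Of 29 genes of interferon and antigen presentation tested, 9 rose (31.0%, beside 3.26% of all genes) and 0 fell (median 0.24). They included the class II genes *H2-Aa*, *H2-Ab1* and *H2-Eb1*, with *H2-Aa* at between 199 and 269 CPM (median 233) against between 147 and 232 CPM (median 172) (log2 difference 0.40 ± 0.08, adjusted p = 0.0099), and the transcription factor *Irf1* (0.28 ± 0.06). H2 genes are close relatives, and reads may be split between them.

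Of 46 genes of DNA replication and mitosis tested, 16 rose (34.8%, beside 3.26% of all genes) and 0 fell. A fitted value above 0 was found in 45 of the 46 (median 0.34). The list was sensitive to single kidneys, with 7 calls when PKD 3 or PKD 6 was left out, 10 for PKD 9, and 6 for PKD + Salsalate 2, 11 or 12. *Mki67*, a marker of cycling cells, was between 33.1 and 55.4 CPM (median 46.0) in the high, between 23.1 and 53.4 CPM (median 29.6) in the low and 3.81 to 11.0 CPM in the wildtype group. Only 2 of 8 high kidneys lay above every low one (log2 difference 0.53 ± 0.11, adjusted p = 0.014). *Foxm1*, the transcription factor of mitotic genes, *Cdk1*, the mitotic kinase, and *Aurkb*, a kinase of chromosome segregation, rose by 0.48 ± 0.09, 0.60 ± 0.13 and 0.61 ± 0.14.

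Of 29 p53 target, growth arrest and stress genes, 4 rose (13.8%, beside 3.26% of all genes) and 0 fell (median 0.16). They were *Cdkn1a*, the inhibitor p21 of cyclin-dependent kinases (23.9 to 37.2 CPM against 16.5 to 31.0 CPM, log2 difference 0.57 ± 0.11), *Gdf15*, a stress cytokine (0.53 ± 0.12), and *Atf3* and *Asns*, genes of the amino acid stress response (0.70 ± 0.15 and 0.65 ± 0.10). Of 19 immediate early genes, 5 rose (26.3%, beside 3.26% of all genes) and 0 fell. Among the 5 was *Egr2* (1.20 ± 0.24, adjusted p = 0.01), from a median of 1.76 to 3.65 CPM. With PKD + Salsalate 11 or 12 left out, 1 of the 19 was called. None of 21 genes of the EGF receptor family and MAPK feedback was called, beside 4.49% of all genes. Of the 21, 5 had an unadjusted p under 0.05, beside 2794 of all 13957 genes.

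Of 52 proximal tubule genes tested, 7 fell and 1 rose, and the median log2 difference of the list was -0.09 (-0.01 without and -0.17 with salsalate). *Slc7a13*, a cystine and aspartate transporter of the straight segment, was between 235 and 442 CPM (median 401) in the high and between 459 and 687 CPM (median 490.3) in the low group, without overlap, against 618 to 1101 CPM in wildtype kidneys. The log2 difference was -0.45 ± 0.10 (adjusted p = 0.017), and the call was lost, at -0.38, when *Havcr1* was left out of the score. *Slco1a1*, an organic anion transporter, was between 74.2 and 165 CPM (median 96.2) against between 89.5 and 271 CPM (median 156) (log2 difference -0.67 ± 0.15, adjusted p = 0.02), but its call was lost when any 1 of the 4 markers was left out of the score, at -0.57 to -0.31. *Slc5a8*, *Slc6a20b*, *Slc17a3*, *Acsm1* and *Acsm2* were the other falls, at -0.34 to -0.21.

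The sulfate transporter *Slc13a1* went the other way, 257 to 457 CPM against 208 to 287 CPM (log2 difference 0.44 ± 0.09, adjusted p = 0.014). The count of proximal tubule calls was unstable, at 3 when PKD + Salsalate 11 or 12 was left out, 4 when it was PKD 6, 8 or 12 or PKD + Salsalate 2 or 9, and 5 when it was PKD 7 or PKD + Salsalate 3. The 7 falls are 13.5% of the list, beside 1.23% of all genes.

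Of 38 distal nephron and collecting duct genes tested, 2 fell (5.26%, beside 1.23% of all genes), and 7 of the 38 had a fitted value above 0 (median -0.14). *Pvalb*, parvalbumin of the distal convoluted tubule, was between 3.08 and 8.91 CPM (median 5.04) against between 5.36 and 11.6 CPM (median 9.58) (log2 difference -0.68 ± 0.17, adjusted p = 0.034), and *Bsnd*, a chloride channel subunit, differed by -0.25 ± 0.07. The *Pvalb* call was lost when any of PKD 6, 8 and 12 and PKD + Salsalate 2, 9 and 12 was left out, where its adjusted p was 0.055 to 0.071. Over the list, 0 to 4 genes were called with 1 kidney left out, with 0 for PKD 6 and 8 and PKD + Salsalate 9 and 12, 1 for PKD 3, 7, 9 and 12 and PKD + Salsalate 2, 4 and 11, and 4 for PKD + Salsalate 1.

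Most of the 10 largest falls were on neither of these lists. *Srd5a2*, a steroid 5α-reductase, was between 3.57 and 7.71 CPM (median 4.87) against between 5.48 and 12.4 CPM (median 9.15) (log2 difference -0.80 ± 0.19, adjusted p = 0.022, and 0.057 with PKD + Salsalate 11 left out). Its call was also lost, at -0.45, -0.61 and -0.56, when *Havcr1*, *Krt20* or *Timp1* was left out of the score. *Kcnt1*, a potassium channel, fell from a median of 58.1 to 36.6 CPM, and its adjusted p was 0.051 when PKD 3 was left out, 0.068 for PKD + Salsalate 11 and 0.060 for PKD + Salsalate 12. *Kif20b*, a kinesin, was 16.3 to 31.4 CPM against 31.0 to 47.8 CPM (log2 difference -0.58 ± 0.12), opposite in sign to *Kif20a*, a kinesin of cell division on the replication list (0.63 ± 0.16).

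*Angptl7*, a secreted angiopoietin-like protein whose gene lies within *Mtor* on the other strand, differed by -0.71 ± 0.13, and by -0.38 and -0.44 without a call when *Havcr1* or *Timp1* was left out of the score. *Gm15348*, an unnamed long non-coding RNA, was 2.01 to 5.24 CPM against 5.23 to 8.15 CPM (log2 difference -0.84 ± 0.16, adjusted p = 0.0088). The pseudogene *Gm4956* differed by -0.60 ± 0.12. *AW822252* and *Tnn*, also among the 10 largest falls, kept an adjusted p under 0.05 in 5 and 4 of the 16 fits with 1 kidney left out.

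Of 49 fatty acid oxidation genes tested, 2 fell (4.08%, beside 1.23% of all genes) and 1 rose (2.04%, beside 3.26%). *Acot12* and *Eci3* fell. *Plin2*, which coats lipid droplets, rose, at 99.8 to 121 CPM against 82.8 to 102 CPM (log2 difference 0.28 ± 0.06, adjusted p = 0.01). When PKD + Salsalate 11 or 12 was left out, 1 of these genes was called. Of 68 genes of the respiratory chain and ATP synthase, 1 was called (1.47%, beside 1.23% lower of all genes), with 31 at an unadjusted p under 0.05. It was the ATP synthase subunit *Atp5po*, at 10.3 to 16.1 CPM against 12.6 to 19.1 CPM (log2 difference -0.33 ± 0.09, adjusted p = 0.049), and it was called in 4 of the 16 fits with 1 kidney left out. All 68 had a fitted value below 0, with a median of -0.16 beside -0.01 for all genes, and 2 of the 68 were above 0 with upper-quartile factors. The median was -0.17 without and -0.16 with salsalate.

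The share of counts on the mitochondrial genome had a median of 8.12% in the high and 8.62% in the low group (exact permutation test, adjusted p = 0.314), and its part in the respiratory chain values was not tested. Of 24 glutathione and NRF2 genes, *Hmox1*, which degrades haem, and *Mt2*, a metallothionein, rose (8.33%, beside 3.26% of all genes). *Hmox1* was between 25.3 and 53.2 CPM (median 33.2) against between 16.2 and 24.5 CPM (median 21.6) without overlap (log2 difference 0.74 ± 0.14, adjusted p = 0.0088). None of 8 haemoglobin and other red cell genes was called, beside 4.49% of all genes, and 1 had an unadjusted p under 0.05. Their median log2 difference was -0.41, with 2 of the 8 above 0, and their summed level was 145 to 299 CPM against 206 to 408 CPM. *Pck1* of gluconeogenesis was the single call of 23 glycolysis and lactate genes (4.35%, beside 1.23% lower of all genes), at -0.40 ± 0.11. That call was lost in 11 of the 16 fits with 1 kidney left out.

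The deleted gene did not separate the groups. *Pkd1* was between 75.2 and 108 CPM (median 92.9) in the high and between 71.02 and 113 CPM (median 91.4) in the low group (log2 difference -0.01 ± 0.10, adjusted p = 0.976), against 53.1 to 86.4 CPM in wildtype kidneys. Gene counts include reads outside exons 2 to 11, so they do not measure how many cells carry the deletion. *Cdh16*, whose promoter drives Cre, was 850.3 to 952 CPM against 763 to 1022 CPM (-0.02 ± 0.06). None of 12 *Pkd1* and cystic kidney genes had an unadjusted p under 0.05, beside 2794 of all 13957 genes. Of 20 genes of glomerulus and vessels, the endothelial cadherin *Cdh5* alone was called (5%, beside 3.26% higher of all genes). It differed by 0.28 ± 0.07 (adjusted p = 0.036), a call that was kept in 8 of the 16 fits with 1 kidney left out.

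**Figure D4:**
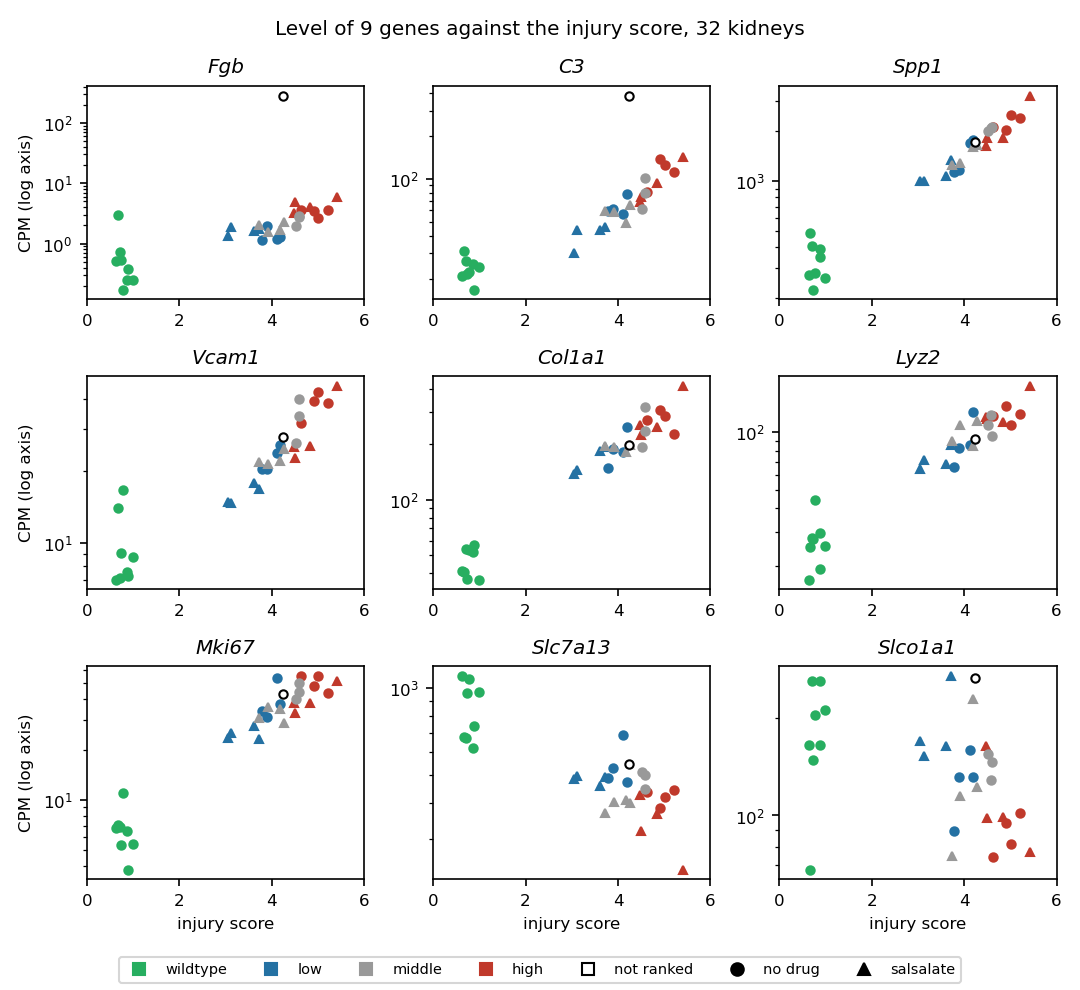
Level of 9 genes in CPM (log axes) against the injury score in the 32 kidneys; circles are kidneys without and triangles with salsalate, coloured by group. In 7 of the panels, from *Fgb* to *Mki67*, the high kidneys sit above most low kidneys and *Slc7a13* and *Slco1a1* run the other way, while the unranked PKD 10 stands apart at 282 CPM of *Fgb* and 381 CPM of *C3*.

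In few genes did every high kidney lie above every low kidney, 39 of 13957 (0.279%), all of them called, and in 25 (0.179%) every high kidney lay below every low kidney, 23 of them called. Of the 39, 10 were on the gene lists, namely *Fgb*, *Fgg*, *Hmox1*, *Fcgr1*, *C3ar1*, *Clu*, *Tnc*, *Col4a1*, *Col4a2* and *Nfkbie*, an inhibitor of NF-κB. *Slc7a13* was the list gene among the 25. Within each treatment group taken alone, the ranges were apart in both groups for 117 of the 455 higher and 40 of the 172 lower genes, beside 122 (0.874%) and 49 (0.351%) of all genes tested.

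The 7 middle kidneys were not used in the fit. Of the 627 genes, 460 (73.4%) had a middle mean between the low and the high mean in PKD kidneys, as had 27.2% of all genes, and 569 (90.7%) did so in PKD + Salsalate kidneys, as had 40.2% of all genes. The kidneys were cut from a continuous ranking, and a wider gap between the low and the high mean leaves more room for a middle mean. Of the 455 higher genes, 440 (96.7%) were lower in wildtype than in low injury kidneys in the mean of log2(CPM + 1), beside 49.8% of all genes. Of the 172 lower genes, 136 (79.1%) were higher in wildtype kidneys, beside 50.2% of all genes. The share of alignments on genes was 73.6 to 76.4% in wildtype 1 to 5 and 80.9 to 83.1% in wildtype 6 to 8, and its part in these values was not tested.

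The comparison was repeated within each treatment group, in fits that shared no kidneys. In PKD + Salsalate kidneys, 4 high against 4 low, 205 genes were called (1.47%), 178 higher and 27 lower, with 2167 at an unadjusted p under 0.05. In PKD kidneys 0 genes were called (0%), with 1416 at an unadjusted p under 0.05, 57 called by DESeq2 and 0 by limma-voom. The score gap was wider with the drug (means of 4.81 and 3.38) than without it (4.94 and 3.99). The count with the drug rested on single kidneys, with 0 calls when replicate 2, 4 or 12 was left out, 3 for replicate 11 and 128 for replicate 3.

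Of the 205 genes called with the drug, 190 (92.7%) had the same direction in PKD kidneys, beside 60.9% of all genes, and 80 (39.02%) also had an unadjusted p under 0.05 there, beside 10.1% of all genes at any direction. The 178 higher genes had a median log2 difference of 0.64 with the drug and 0.24 without it, and the 27 lower genes -0.48 and -0.20. These genes were chosen for passing in the first group, which favours the larger values there. Tested directly, no gene was called for a difference in its injury effect between the treatment groups (0 called, 0%, by edgeR and by DESeq2). In the edgeR test, 696 genes had an unadjusted p under 0.05 and the smallest adjusted p was 0.825. With few kidneys in each group, these counts do not show that the injury effect was the same in both. All 627 genes of the joint fit had the same direction in both groups, beside 60.9% of all genes. These 627 genes were chosen for passing in a fit of the same kidneys, which favours the same direction in both groups.

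**Figure D5:**
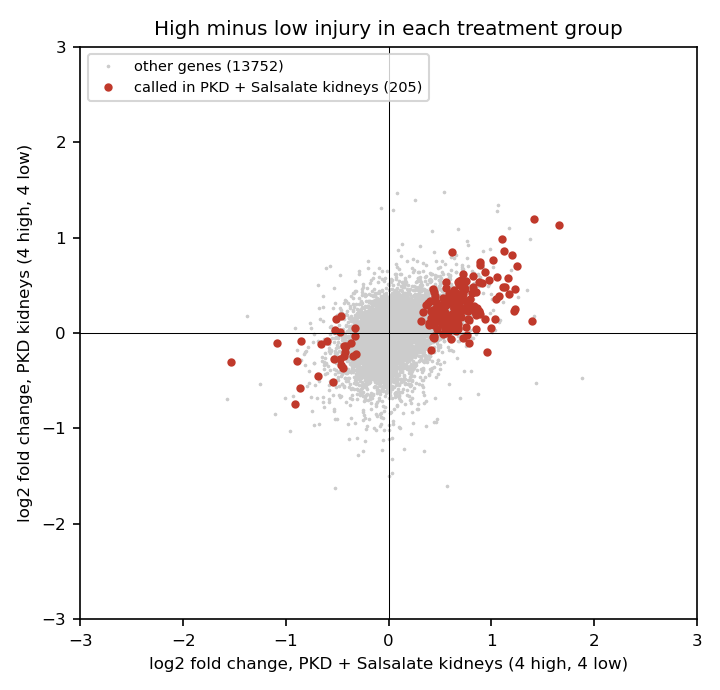
Log2 difference between high and low injury in PKD + Salsalate kidneys (horizontal axis) and in PKD kidneys (vertical axis) for each gene tested, with 1 gene outside the axes; red points are the 205 genes called in PKD + Salsalate kidneys. Most red points, 190 of 205, lie in the quadrants where both values have the same sign.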

How the data were processed

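RNA of 32 kidneys was sequenced as directional poly(A) libraries. The authors deposited 1 table of counts on 53700 genes, without normalization. Per the labels and the paper's methods, reads were aligned with STAR 2.7.5a to GRCm39 and counted by strand with HTSeq 0.12.4. Groups and replicate numbers were taken from the labels. The injury score used CPM from the raw counts over each kidney's total on genes. The members and gene lists were chosen with earlier results of these data known, so the lists are described by counts and medians only.

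The filter asked for a log2 CPM above 1 in 25% or more of all 32 kidneys and left 13961 genes, and the 4 scoring genes were left out of all tests and adjustments. Printed CPM of other genes were scaled by the trimmed mean of M-values (TMM) over 32 kidneys. The 16 kidneys were fitted with edgeR 4.0.16 in R 4.3.3 by the quasi-likelihood method, with injury and treatment as terms, and false discovery rates (adjusted p, Benjamini-Hochberg) were taken over 13957 genes. Nothing in the labels ties kidneys to litters, and p-values measure the spread between mice. Since the groups were selected on the score, a p-value tests whether a gene differed between kidneys ranked by the 4 markers, not the effect of an assigned condition. Each treatment group was also fitted alone, and the difference between them as an interaction. Library measures were compared over 4900 arrangements. Genes were named as the 10 strongest changes in each direction that had an adjusted p under 0.05, a mean of at least 5 CPM, and the same sign in both treatment groups and with each kidney left out, as members of the 21 lists, or, where said, after their values were seen, and a few genes that met the rule are not reported here. Listed symbols missing from the table were looked up by identifier or by RefSeq (GRCm38.p6) synonyms, and 1 was not found. Positions on GRCm39 come from GENCODE mouse release 39, which held 52610 of the 53700 gene identifiers. On simulated data with 200 genes changed 2-fold, 198 were recovered for the 8 against 8 comparison of 13957 genes. There were 12 false calls, and 0 calls were made without changed genes. Recovery at smaller changes was not tested. The 627 called genes had a median absolute log2 difference of 0.41, and 107 of them were beyond 1.5-fold. At 11193136 counts on genes, the smallest total of the 16 kidneys, 1 CPM stands for about 11 counts. Alternatives were other scalings, filters, tests, group sizes and scores, and each kidney left out.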

Additional observations from a re-analysis of the deposited data

Results flagged for a closer look

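Of 74 groups of values checked for 1 kidney standing far from the rest (the 20 leading genes in the high, low and wildtype groups, and 7 library measures in the high and low groups), 5 had one, and chance alone gives about 1 in 20. PKD + Salsalate replicate 11 had the highest *Fgg* of the high group at 46.9 CPM, with the next kidney at 27.7 CPM. PKD + Salsalate replicate 7 had the highest *Slco1a1* of the high group at 165 CPM against 102 CPM in the next, and wildtype replicate 1 the lowest of its group at 67.9 CPM against 148 CPM. PKD + Salsalate replicate 2 had the highest *Kif20b* of the low group at 47.8 CPM, with the next at 37.3 CPM. PKD + Salsalate replicate 3 had 109807664 counts on genes, with the next library of the low group at 21366391. The calls of *Fgg*, *Slco1a1* and *Kif20b* were kept in all 16 fits with 1 kidney left out.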

How the results depend on the processing

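All 627 genes kept their direction under every setting run. Between 245 and 741 genes were called with 1 kidney left out. The count was 1053 by DESeq2's Wald test, 950 with the share on no feature as a covariate, 1091 with the 3 highest and 3 lowest of each group, 1499 with the score as a slope over 23 kidneys and 1600 with a score without *Timp1*, and the cause was not tested. In PKD kidneys alone the 0 calls became 57 by DESeq2's Wald test, 128 without a filter and 0 to 3 with 1 kidney left out. In PKD + Salsalate kidneys alone the 205 became 655, 524 without a filter, 333 in a fit of all 16 kidneys in 4 groups, and 0 to 251 with 1 kidney left out. The other settings left these counts within 1.5 times, and the interaction stayed at 0.

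The replicate numbers do not pair the kidneys. Of 11 pairs with the same number, 4 had a correlation over 0.1, and 1 kidney was closest to its own number. With a replicate block the slope called 1412 genes, and the 16 kidneys, which share 6 numbers and leave 4 residual degrees of freedom, 0 genes, with 928 at an unadjusted p under 0.05.

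The direction of 2 genes that were not called was not fixed. *Pkd1* was at 0.00897 with upper-quartile factors, 0.00944 with the share on no feature as a covariate, and -0.060 to 0.042 with 1 kidney left out. *Cdh16* was at 0.037 with 3 kidneys a side, 0.020 and 0.013 with scores without *Lcn2* and without *Timp1*, 0.032 with the slope and the replicate block, and -0.058 to 0.011 with 1 kidney left out. Some named genes lost their call in settings other than leaving out a kidney, with no change of sign. Without treatment as a covariate these were *Mki67*, *Cdk1*, *Atf3*, *Cxcl10*, *Pvalb*, *AW822252* and *Tnn*. With the slope over 23 kidneys these were *Slco1a1* and *Srd5a2*, with 5 kidneys a side *Slco1a1* and *C8a*, with a score without *Havcr1* also *Slc7a13* (-0.38), and with scores without *Lcn2* or *Timp1* *Clcf1* (0.44 and 0.35). Lymphocyte and cytokine genes near 1 CPM rest on about 11 counts in the shallowest library.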

Other observations

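Some enzyme genes outside the lists were chosen after their values were seen, and each was called in all 16 fits with 1 kidney left out. No list of such enzymes was tested, so they are given as single genes. *Phgdh*, of the first step of serine synthesis, was 33.0 to 66.6 CPM in the high and 24.3 to 34.2 CPM in the low group (log2 difference 0.60 ± 0.10, adjusted p = 0.0062). *Psat1*, also of serine synthesis and a tested member of the growth arrest and stress list, was not called. *Mthfd2*, of mitochondrial folate metabolism, rose by 0.46 ± 0.10, and *Aldh18a1*, of proline synthesis, by 0.55 ± 0.10. *Aldh1a2*, which makes retinoic acid, rose by 0.82 ± 0.15, from 9.22 to 21.5 to 20.9 to 38.4 CPM.

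*Nudt19*, a peroxisomal hydrolase of coenzyme A and one of the most abundant genes that fell, was between 528 and 869.9 CPM (median 652) against between 831 and 1102 CPM (median 939) (log2 difference -0.54 ± 0.09, adjusted p = 0.0062), and 7 of 8 high kidneys lay below every low one. *Haao* and *Kyat1* of the kynurenine pathway differed by -0.35 ± 0.07 and -0.36 ± 0.08, and *Acy1*, an aminoacylase, by -0.32 ± 0.06.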
